A study of Mus musculus with 95 samples.

Results

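The genes described here encode the subunits of the constitutive proteasome, the protease found in all nucleated cells, together with the chaperones that share its gene names. They were chosen by symbol: Psma, Psmb, Psmc or Psmd followed by a number, without the immunoproteasome genes Psmb8, Psmb9 and Psmb10. Of 20638 genes in the count table, 36 matched, and 34 also reached 1 CPM (a gene's count divided by the library total, times 1000000) in at least 10 libraries, as did 15839 genes in all. The 2 that did not, Psma8 and Psmb11, are known from testis and from thymus epithelium and had medians of 0.101 and 0.0620 CPM. Messenger RNA was measured by poly(A) RNA-seq in 95 libraries of pancreatic islets, which hold the endocrine cells that make insulin and glucagon, from founder strains of the Diversity Outbred mouse population. Every library carries the same labels, islet tissue and a diet of 45% fat that the protocols call high in fat and sugar. Strain, sex and age are not assigned to single libraries here. All libraries therefore form 1 ungrouped set and are called by the numbers 1 to 100 in their labels, of which 95 are present.

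The proteasome breaks down proteins tagged with ubiquitin. Its core particle is a barrel of stacked rings: outer alpha rings that gate the entrance, and inner beta rings, in which 3 subunits carry the protease sites. The regulatory particle caps the barrel. Its base holds 6 ATPases that unfold the substrate, and its lid and base hold non-ATPase subunits that bind ubiquitin, remove it and hold the assembly together. All subunits are needed in fixed ratios, and the machine carries much of the protein quality control in cells that, like islet cells, secrete large amounts of protein.

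The libraries held between 16411809 and 34357253 counts, with a median of 26552738, and single proteasome genes between 101 and 6151 counts in a library. Endocrine genes were abundant throughout, with Ins2 at 35008 CPM or more and Gcg at 2509 CPM or more in every library. Digestive enzyme genes of acinar cells (17 of 17 listed were above 0 in every library) took 0.227% of counts in library 25 and 35.5% in library 54. Immune cell genes summed to a median of 81.1 CPM and reached 1404, 1545 and 2136.8 CPM in libraries 99, 100 and 97. Those 3 libraries also had the highest scores of the proteasome genes, and results that rest on them are given with and without them. Levels below are CPM after TMM scaling, which corrects library sizes so that a few very abundant transcripts do not shift the rest. In bulk tissue, fewer cells of a type and less RNA per cell cannot be told apart.

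Together the 34 genes summed to a median of 1584 CPM, from 1357 in library 78 to 1998 in library 100. Of the alpha ring, Psma1 had a median of 43.9 CPM (34.7 to 64.2), Psma2 40.9 CPM (31.2 to 66.8) and Psma3 43.5 CPM (27.6 to 68.7). Psma4 followed with 33.003 CPM (27.5 to 62.5), Psma5 with 29.2 CPM (21.3 to 56.1), Psma6 with 43.0 CPM (30.5 to 65.2) and Psma7 with 47.7 CPM (39.4 to 73.7). These subunits have no protease site of their own and form the gate of the barrel.

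The catalytic genes of the beta ring had similar ranges. Psmb5, the chymotrypsin-like site, had a median of 34.4 CPM (26.4 to 49.6). Psmb6, the caspase-like site, had 42.7 CPM (31.9 to 58.9), and Psmb7, the trypsin-like site, 43.8 CPM (33.2 to 60.2). The structural subunits of the ring were Psmb1 at 57.5 CPM (42.8 to 93.1), Psmb2 at 34.8 CPM (25.2 to 48.1), Psmb3 at 25.4 CPM (19.5 to 45.9) and Psmb4 at 67.0 CPM (52.4 to 92.7).

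The ATPase genes spanned narrow ranges. Psmc1 had a median of 50.3 CPM (41.2 to 60.8), Psmc2 68.5 CPM (57.8 to 82.3) and Psmc3 40.4 CPM (33.4 to 63.6). Psmc4 was at 41.7 CPM (32.9 to 52.4), Psmc5 at 49.7 CPM (42.6 to 62.8) and Psmc6 at 37.4 CPM (26.6 to 43.4). For 4 of the 6 genes (Psmc1, Psmc2, Psmc4 and Psmc5) the highest library was less than 1.6 times the lowest, while it was 1.63 times for Psmc6 and 1.90 times for Psmc3.

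Among the non-ATPase subunits, the large base scaffolds Psmd1 and Psmd2 had medians of 76.2 CPM (60.5 to 94.9) and 136 CPM (116 to 169). Psmd4, a ubiquitin receptor, had 45.3 CPM (36.1 to 65.9). Psmd14, the deubiquitinase that strips ubiquitin chains from the substrate, had 22.0 CPM (17.4 to 38.9), and its partner Psmd7 51.1 CPM (44.0 to 62.9). The lid scaffolds were Psmd3 at 87.5 CPM (66.9 to 112), Psmd6 at 55.9 CPM (43.9 to 72.8), Psmd8 at 48.7 CPM (36.5 to 70.7), Psmd11 at 50.6 CPM (43.5 to 60.6), Psmd12 at 42.9 CPM (35.4 to 55.9) and Psmd13 at 42.9 CPM (33.7 to 54.0). The chaperones of base assembly, which leave before the particle is finished, were Psmd5 at 25.9 CPM (18.8 to 29.9), Psmd9 at 12.5 CPM (7.80 to 15.9) and Psmd10 at 8.34 CPM (6.47 to 13.9).

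**Figure D1:**
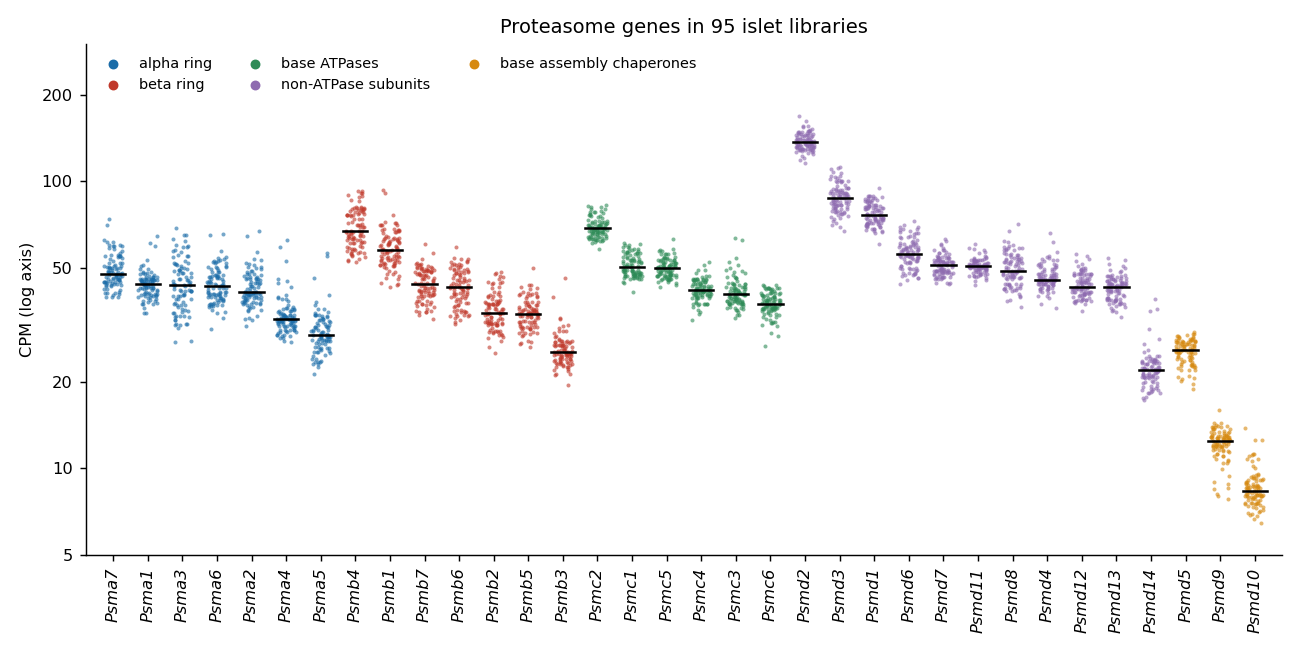
CPM (log axis, TMM library sizes) of the 34 proteasome genes in 95 libraries, by class. Each point is a library and each black line a median. The medians run from 8.34 to 136 CPM, not corrected for gene length, and the highest library was 1.39 (Psmd11) to 2.64 (Psma5) times the lowest.

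Promoters were searched for the antioxidant response element, TGACNNNGC, to which the transcription factor Nfe2l1 and its relatives bind. RefSeq windows (GRCm38.p6, 250 bases before to 50 after a gene's start, both strands) were on hand for 28 of the 34 genes, and 5 of the 28 held a match, 17.9% against 13.99% of all genes in the table. CCAAT was found in 11 of 28, 39.3% against 41.1%. The element near the start of the catalytic genes Psmb5 and Psmb6 and of the chaperone gene Psmd9 is shown, since these are the matches within 50 bases of a start. Capitals mark the match, all 3 read on the gene's strand, from Psmb5 at chr14:54618014-54618062 (minus strand), Psmb6 at chr11:70525328-70525356 (plus strand) and Psmd9 at chr5:123228139-123228187 (plus strand).
Psmb5: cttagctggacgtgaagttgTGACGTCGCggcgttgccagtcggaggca
Psmb6: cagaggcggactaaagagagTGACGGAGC
Psmd9: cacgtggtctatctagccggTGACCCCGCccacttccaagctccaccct
The remaining matches were 247 bases before the start of Psmd12 and 227 before that of Psmc6. A match is a description of letters, not evidence of binding.

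Levels of different genes were compared per length. Per kilobase of coding sequence the 31 subunit genes had a median of 45.9 CPM and ran from 23.7 CPM for Psmd14 to 84.6 CPM for Psmb4. The 3 chaperones lay below all of them, at 12.0 CPM for Psmd10, 17.1 CPM for Psmd5 and 18.8 CPM for Psmd9. Per kilobase of the whole principal transcript in the GENCODE annotation the chaperones were again the lowest, at 4.81 to 5.89 CPM against 14.1 to 56.6 CPM for the subunits. Class medians per coding kilobase were 56.9 CPM for the alpha ring, 57.7 for the beta ring, 35.7 for the ATPases and 40.2 for the non-ATPase subunits. The order of the classes was not the same per kilobase of transcript, where the alpha ring had 28.3 CPM and the non-ATPase subunits 31.6 CPM, so no order between the particles was read from these levels.

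Proteasome genes were among the evenly expressed genes of these islets. Evenness was measured by the biological coefficient of variation, the spread between libraries that remains after counting error. Its median over the 34 genes was 12.3%, against 26.1% over all kept genes and 17.8% over the 8849 genes within the same range of median CPM. All 34 lay below the median of kept genes, here and under every alternative computed for this value, and 16 of the 34 were in the lowest 10%. Within the CPM range, 18.1% of genes had a coefficient below the median of the proteasome genes. Values over all genes are a description and not a test of the members.

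The regulatory particle had lower coefficients than the core particle. The 17 ATPase and non-ATPase genes had a median coefficient of 9.77%, and 14 were in the lowest 10% of kept genes. The 14 alpha and beta genes had a median of 14.4%, and 1 of them, Psma1 at 11.0%, was in the lowest 10%. The regulatory median was the lower under every alternative computed, and without libraries 97, 99 and 100 the medians were 9.54% and 12.5%. Among the comparison complexes, the cytosolic chaperonin CCT had a median of 10.9%, the COP9 signalosome 9.86% and the initiation factor eIF3 13.2%, so coefficients of this size were not limited to the proteasome.

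Psmd11 was the most even proteasome gene. It encodes a lid subunit that bridges the regulatory and core particles, and lies on chromosome 11, from 80428615 to 80473248 (GRCm38). Its coefficient of 6.45% ranked 3 from the lowest among the 15839 kept genes, and 60.6 CPM in library 97 was 1.39 times the 43.5 CPM in library 53. Psmd2, at 7.76%, and the ATPase gene Psmc5, at 8.13%, came next. Highest over lowest library was 1.46 for Psmd2 and 1.47 for Psmc5.

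**Figure D2:**
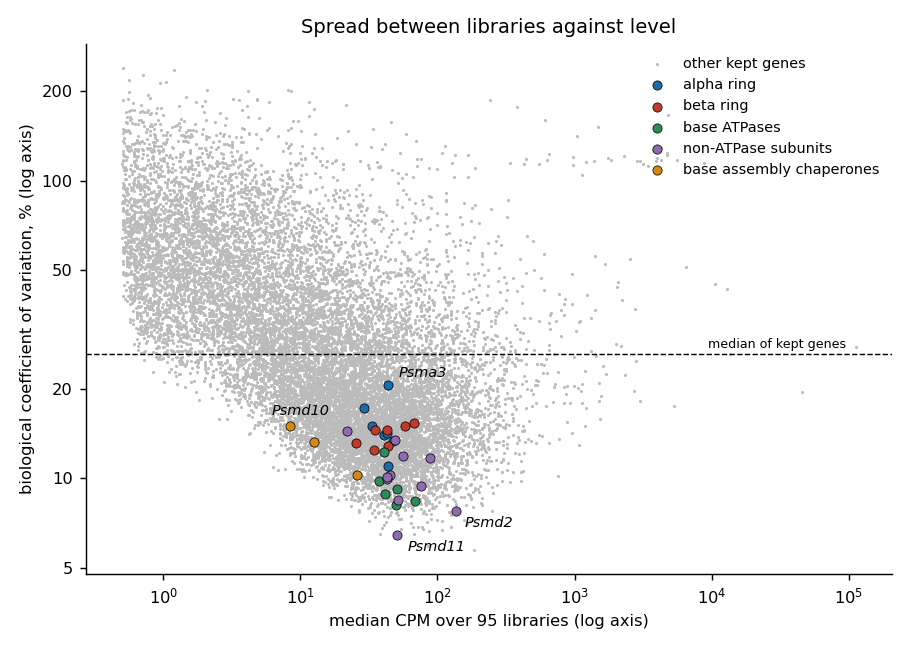
Biological coefficient of variation (%, log axis) against median CPM (log axis) for kept genes with a median above 0.5 CPM; each point is a gene, and the dashed line is the median of all kept genes, 26.1%. All 34 proteasome genes lie below the line, from Psmd11 at 6.45% to Psma3 at 20.7%.

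The 3 least even genes were Psma3, Psma5 and Psmb4. Psma5 had a coefficient of 17.2%, with 56.1 and 55.0 CPM in libraries 100 and 97 against a median of 29.2 CPM. Without libraries 97, 99 and 100 it was 13.2%, below Psmb4 at 15.0%, Psmb6 at 14.6% and Psmb2 at 14.1%. It shares 61.0% of its 31-base words with other genes, of which Gm8394 holds the most, so its value is uncertain. Psmb4, on chromosome 3 from 94884093 to 94886961, had 15.3%. Its 8 highest libraries were 100, 32, 30, 28, 31, 97, 29 and 26, at 86.0 to 92.7 CPM, and no other gene's transcripts hold its words.

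Psma3 stood apart from the rest, with a coefficient of 20.7%. The gene lies on chromosome 12 from 70974621 to 70996347. Its 8 highest libraries, at 58.9 to 68.7 CPM, were 25 to 32, and its lowest was library 94 at 27.6 CPM. The coefficient was lower when the counts of a pseudogene, Gm13835, were added to those of Psma3. Gm13835, on chromosome 6 from 31141979 to 31142663, is a processed pseudogene in GENCODE. Of its 31-base words, 100% occur in transcripts of other genes, of which Psma3 holds the most. Its counts fell into separate clusters: 0 to 3.47 CPM in 44 libraries, of which 16 were listed at 0, and 9.60 to 27.7 CPM in the other 51, which were libraries 2, 3, 5 to 24, 35, 40 to 58 and 91 to 100. Within the clusters the rank correlation of the pair was -0.230 (n = 44) and 0.174 (n = 51), given as a description.

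Counted together, the sum of Psma3 and Gm13835 had a median of 52.6 CPM and ran from 44.1 CPM in library 78 to 76.1 CPM in library 13, a 1.73-fold range against 2.49-fold for Psma3 alone. Its coefficient of variation was 12.5% in place of 20.7%, and its mean rank correlation with the other 33 genes was 0.496 in place of 0.0722. How the authors divided reads between the gene and the pseudogene is not given in the sources used here, so values of Psma3 alone are uncertain. The counts do not say which of the loci the reads came from. This alternative was chosen after the values were seen.

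**Figure D3:**
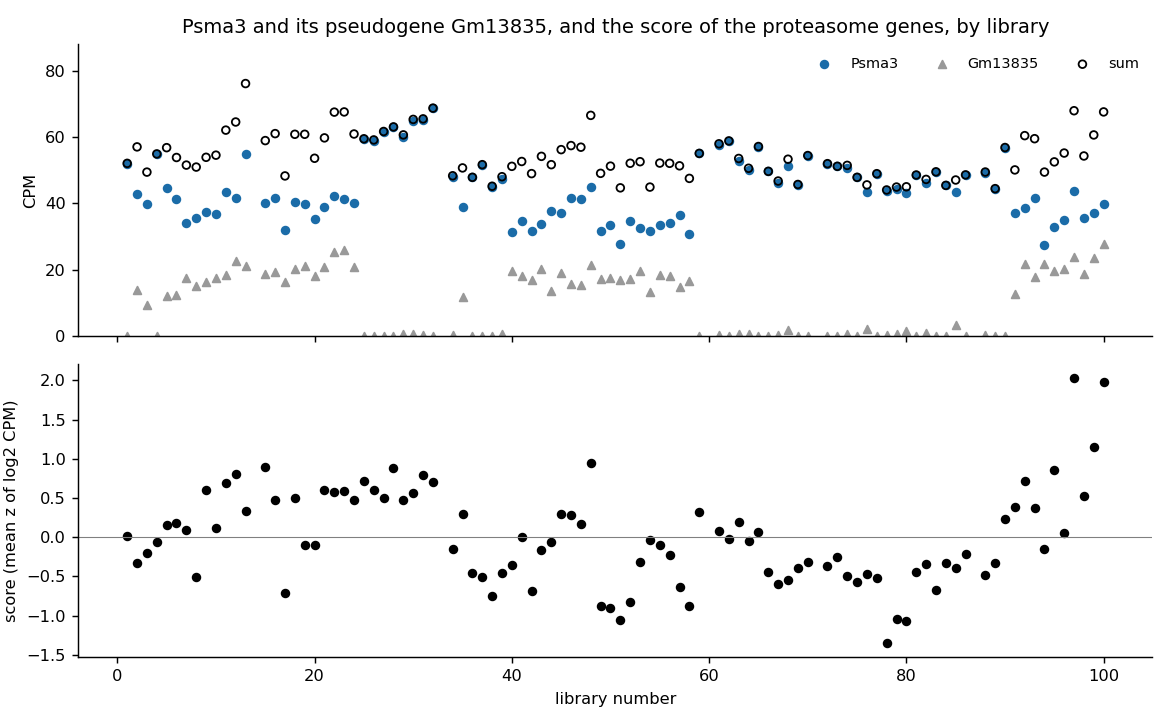
Top, CPM of Psma3 (filled circles), its pseudogene Gm13835 (triangles) and their sum (open circles) by library number. Bottom, score of the 34 proteasome genes, the mean of their standardised log2 CPM, by library number. Gm13835 is near 0 in 44 libraries and at 9.60 CPM or more in 51, and the sum spans 44.1 to 76.1 CPM. The score is highest in libraries 97 and 100.

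Sequence shared with other genes touched some further members. The share of 31-base words found in any other gene exceeded 10% for 11 of the 34 and 50% for Psmb5 (71.7%) and Psma5. For Psmb5 the gene holding the most of these words was Gm3375. Psmd11 shares 15.8% with other genes, the most with A730017L22Rik, which ran from 0 to 15.9 CPM. Psmb7 shares 11.3%, the most with Nek6, at 2.99 to 31.6 CPM. For Psma4, Psmc1, Psmd2 and Psmd9 the closest relative had at most 0.992 CPM in any library, far below the gene itself. The closest relatives of Psma5, Psmb3, Psmb5 and Psmc2 are not among the genes of the count table, so no level can be given for them.

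The proteasome genes moved together over the libraries. The mean Spearman rho over their 561 pairs was 0.337, against 0.000483 over all pairs of kept genes. Of the pairs, 520 were positive, and 26.7% exceeded 0.5, against 2.55% of all gene pairs. A single principal component took 42.0% of their variance. Correlations are descriptions, since all points share libraries and their scaling, and libraries with neighbouring numbers resembled each other: the median rho of a gene between neighbouring numbers was 0.553 over all kept genes and 0.448 over the proteasome genes.

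The 21 pairs of the beta ring had a mean rho of 0.531 and were all positive, from 0.294 to 0.869. The alpha ring had 0.417, or 0.555 with Psma3 counted together with its pseudogene. The 15 pairs of ATPases had 0.374 and the 55 pairs of non-ATPase subunits 0.340. The mean was 0.425 within the core particle, 0.355 within the regulatory particle and 0.363 over the 238 pairs between them, and these were not tested against each other. The chaperones stood lower, with 0.156 among themselves and 0.108 with the non-ATPase subunits. Without libraries above 90 the mean over all pairs was 0.315, and with acinar and immune contents regressed out 0.336.

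The closest pair was Psmb4 and Psmb6, a structural and a catalytic beta gene, with a rho of 0.869. Both had low levels in libraries 8, 36, 68, 73, 75 and 78, and high ones in 29, 30, 32 and 100. The pair farthest apart was Psma3 and the chaperone gene Psmd5, with a rho of -0.313, which was 0.210 with Psma3 summed with its pseudogene. Psma2, an alpha subunit, and Psmc1, an ATPase, had the highest mean rho with the other members, at 0.499 and 0.494. Psmd11 had the lowest, 0.0528.

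**Figure D4:**
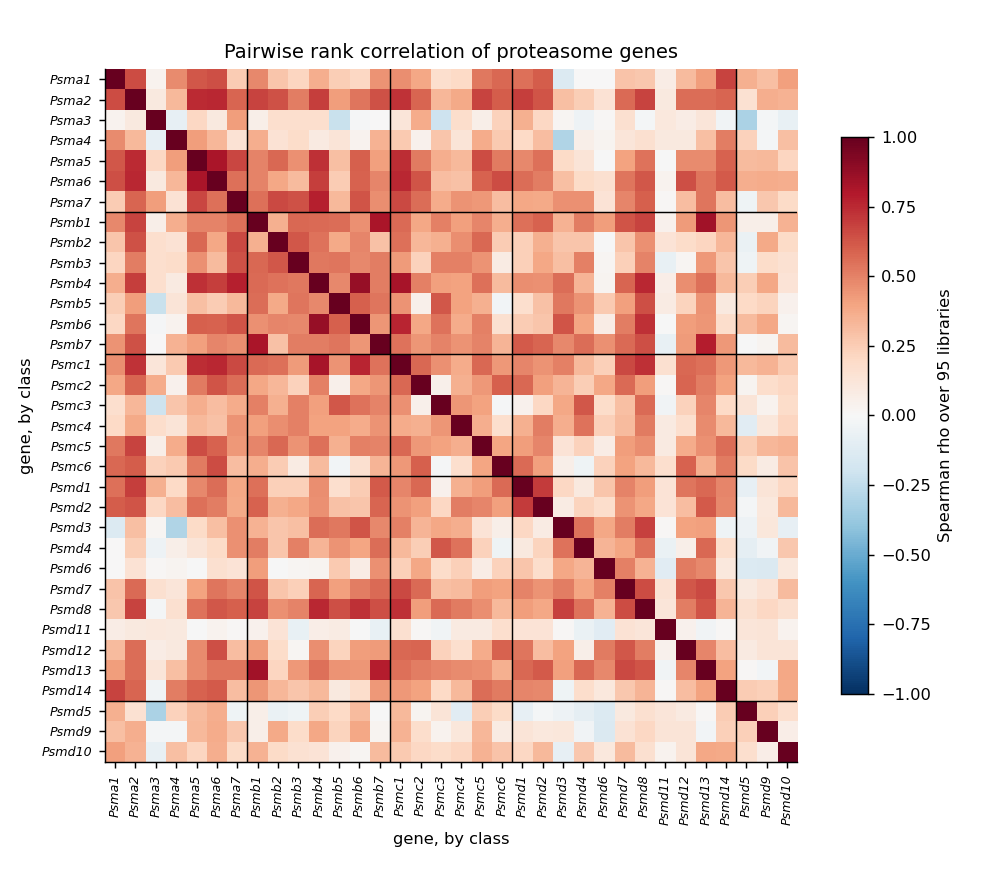
Spearman rho between each pair of the 34 proteasome genes over 95 libraries, with lines between the alpha ring, beta ring, ATPases, non-ATPase subunits and chaperones. Red is positive and blue negative. Most cells are red, and the palest rows on average are Psmd11, Psma3, Psmd5, Psmd9, Psmd6 and Psma4.

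Of the comparison complexes, the chaperonin lay above the proteasome genes, eIF3 near them and the COP9 signalosome below. The mean pairwise rho was 0.496 for the 8 chaperonin CCT genes, 0.350 for the 13 genes of eIF3 and 0.113 for the 9 genes of the COP9 signalosome. The genes outside the list most like the score of the 34 members, by Spearman rho over 95 libraries, were Chmp2a (0.815), Mdh2 (0.798), Myl6 (0.785), Ppia (0.775), Magoh (0.769), Erh (0.768), Cstb (0.764), Ncl (0.762), Bzw1 (0.758) and Slc2a1 (0.752). Chmp2a encodes a membrane-remodelling protein, Mdh2 mitochondrial malate dehydrogenase and Ppia cyclophilin A.

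Single libraries set the upper ends. The score was 2.03 in library 97, 1.97 in library 100 and 1.15 in library 99, and lowest in library 78 at -1.36. In library 97, 32 of the 34 genes were above their median, and in library 78, 3. For 18 of the 34 the highest value was in library 97 or 100. Library 97 also had the lowest Ins1, Ins2 and Iapp and the highest immune sum. The same counts over all kept genes are not given here, so these are not read as particular to the proteasome genes. The largest gaps between neighbouring values, as a share of the log2 range, were 22.5% for Psmb1 and 22.3% for Psmc3, each with the same 2 libraries above. Psmb1 had 93.1 and 90.6 CPM in libraries 97 and 100 and at most 76.1 CPM elsewhere, and Psmc3 had 63.6 and 62.3 CPM there and at most 54.0 CPM elsewhere.

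The chaperone gene Psmd9 and the lid gene Psmd6 had their extremes in other libraries, while the chaperone gene Psmd10 was highest in 97, 100 and 99 like many subunits. The 8 lowest values of Psmd9 were in libraries 36, 1, 39, 38, 37, 8, 35 and 2, at 7.80 to 9.38 CPM against a median of 12.5 CPM. The 8 highest values of Psmd6 were in libraries 35, 95, 3, 8, 6, 36, 4 and 7, at 67.2 to 72.8 CPM, and its lowest was library 97 at 43.9 CPM. The rho of the pair was -0.148.

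Over all libraries, proteasome transcripts were higher with immune content in both particles, and most of these calls were lost without the libraries above 90. Libraries of nearby number were alike, so the adjusted p-values of this and the following edgeR tests are too small. Per doubling of the summed immune genes, with acinar content in the same model, 21 of the 34 genes were called higher and 1 lower (edgeR quasi-likelihood F test, adjusted p below 0.05 over 15824 genes), against 29.2% and 30.2% of all genes tested. Of the core particle, 6 of 7 alpha and 5 of 7 beta genes were called higher. Of the regulatory particle, 4 of 6 ATPase and 5 of 11 non-ATPase genes were called higher, and Psmd10 was the chaperone called. Psma5 and Psma4 had the largest coefficients, 0.15 (SE 0.015) and 0.14 (SE 0.012) on the log2 scale, or 10.6% and 10.2% per doubling. Psmd6 fell by 0.03 (SE 0.015, adjusted p = 0.0385), the call was lost with DESeq2 size factors, above number 50 and without libraries 97, 99 and 100, and its coefficient was positive with library totals alone, without libraries above 90 and at numbers of 50 or lower.

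Fewer of these calls were made without the high libraries. Without libraries 97, 99 and 100, 11 of the 34 genes were called higher and 0 lower, against 20.5% and 18.7% of all genes. Psma5 and Psma4 were still called there, at 0.10 and 0.09. At numbers of 50 or lower both coefficients were negative, and 13 of the 34 genes had a positive one. The median coefficient of the 34 genes was 0.0438 over all libraries, 0.0044 without libraries above 90 and -0.0322 at numbers of 50 or lower. Without all libraries above 90, 2 genes were called higher and 1 lower, against 16.4% and 13.5%. There the summed immune genes reached at most 241 CPM, in library 90. Of the 15 immune markers, 15 had their highest value in libraries 97, 99 or 100. The T cell marker genes Cd3d, Cd3e and Cd3g were listed at 0 in 26, 21 and 13 libraries, and 9 of the 15 markers were above 0 in every library. The libraries share more than their immune genes, and what part immune cells have in the result was not tested.

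With acinar content, 19 of the 34 proteasome genes were not called, and the median coefficient was -0.007, against -0.0028 over all genes. Of the 34 genes, 4 were called higher and 11 lower per doubling of the summed acinar genes, 15 in all, against 34.4% of genes called in either direction, 17.1% higher and 17.3% lower (edgeR quasi-likelihood F test, adjusted p below 0.05). The alpha ring had 5 of 7 genes called lower and the beta ring 1 of 7. Psma3 had the largest decrease, with a coefficient of -0.08 (SE 0.012, adjusted p = 1.41e-07), or -5.34% per doubling, and it was -0.03 when Psma3 was counted with its pseudogene. Psmb4 followed at -0.04 (SE 0.0096, adjusted p = 0.000727). Psmb5 and Psmd6 had the largest increases, 0.03 each (adjusted p = 0.00150 and 0.000733), and both coefficients turned negative with library totals alone. Under that scaling the median coefficient of all genes was -0.11, and 0 of the 34 were called higher and 34 lower, against 5.85% and 75.9% of all genes. At numbers of 50 or lower 0 were called higher and 16 lower, against 17.0% and 16.3%. Above 50, 3 were called higher and 2 lower, against 10.2% and 7.82%.

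Nfe2l1 encodes the transcription factor known to raise proteasome genes when proteasome activity falls. It is controlled mainly by processing of its protein, so its transcript need not follow its activity. Its level ran from 244 CPM in library 68 to 391.9 CPM in library 15, with a median of 289 CPM, and its Spearman rho with the score was -0.0141. Per doubling of Nfe2l1, 3 proteasome genes were called higher and 5 lower, 8 of 34 in all, against 43.8% of genes called in either direction, 17.9% higher and 25.9% lower. Without libraries 97, 99 and 100 it was 4 higher and 2 lower, against 17.8% and 22.9%, and without libraries above 90 also 4 and 2, against 17.8% and 21.4%. The chaperone genes Psmd9 and Psmd5 had the largest increases, 0.44 (SE 0.13, adjusted p = 0.00289) and 0.39 (SE 0.092, adjusted p = 0.000338), and Psmb6 followed at 0.35. Of the 5 genes with the response element, Psmb6 and Psmd9 were called, and Psmb5 (0.14), Psmd12 (0.13) and Psmc6 (-0.05) were not. Psma3 and Psma4 had the largest decreases, -0.67 (adjusted p = 0.00352) and -0.38 (adjusted p = 0.0201). With library totals alone both coefficients were positive, Psma4 was also positive at numbers of 50 or lower, and Psma3 was 0.07 when counted with its pseudogene. Psma4 was not called without libraries 97, 99 and 100, at -0.18. No ATPase gene was called at the adjusted threshold. With library totals alone 34 were called higher and 0 lower, against 84.7% and 2.44% of all genes, and the median coefficient of all genes was 0.82. At numbers of 50 or lower 5 were called higher and 3 lower, against 20.2% and 20.0%. Above 50, 0 were called higher and 12 lower, against 13.3% and 16.5%.

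The other genes of the pathway ranged from even to highly variable. The immunoproteasome genes, which replace the catalytic subunits under interferon, had coefficients of 92.8% (Psmb8), 85.8% (Psmb9) and 60.6% (Psmb10). Psmb8 ran from 2.92 to 191 CPM, Psmb9 from 2.52 to 126 CPM and Psmb10 from 6.85 to 94.1 CPM, each highest in library 97. All 3 were called higher with immune content, at 0.93, 0.83 and 0.51. The interferon-inducible activator genes Psme1 and Psme2 also rose, at 0.42 and 0.38. Their coefficients of variation were 42.9% and 39.3%, while the nuclear activator gene Psme3 was at 9.21% and Psme4 at 16.0%. The rho with the score was 0.601 for Psme2, 0.466 for Psme1, 0.300 for Psme3 and -0.502 for Psme4.

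Assembly factors and further subunits differed in how closely they followed the score. Pomp, the maturation factor of the core particle, had a rho of 0.689, with 59.6 CPM in library 100 against a median of 31.1 CPM. The core chaperones were Psmg4 at 0.634, Psmg1 at 0.373, Psmg2 at 0.0733 and Psmg3 at -0.203. Of the regulatory particle subunits outside the name rule, Shfm1 (now Sem1) was at 0.597 and the ubiquitin receptor Adrm1 at 0.124. Among proteasome-bound ubiquitin enzymes, the deubiquitinases Uchl5 and Usp14 were at 0.321 and -0.243 and the ligase Ube3c at -0.0261. The shuttle factors, which bring tagged proteins, ran from 0.457 for Rad23b through Ubqln1 at -0.177 and Ubqln4 at -0.415 to Ubqln2 at -0.501. The ubiquitin gene Ubb was at 0.326 and Uba1, the activating enzyme, at 0.389. Nfe2l2, the protease Ddi2 and the glycanase Ngly1, of which the last 2 process Nfe2l1, were at -0.125, -0.177 and -0.0621.

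Of these 31 pathway genes, 13 were called higher and 6 lower with immune content, 10 higher and 8 lower with acinar content, and, of 30 without Nfe2l1 itself, 4 higher and 10 lower with Nfe2l1. The shares of all genes called higher and lower were 29.2% and 30.2%, 17.1% and 17.3%, and 17.9% and 25.9%. Without libraries above 90 the immune counts were 4 and 4, against 16.4% and 13.5% of all genes. Without libraries 97, 99 and 100, 4 were called higher and 5 lower with Nfe2l1, against 17.8% and 22.9%. Pomp rose by 0.14 per doubling of immune content and Ubb fell by 0.28 (edgeR adjusted p = 2.65e-20 and 3.39e-08). Psmb10 rose with acinar content, at 0.20 (edgeR adjusted p = 3.02e-13), and Psmb8 and Psmb9 fell by 0.09 and 0.07. The immunoproteasome genes were called lower with Nfe2l1, with coefficients of -3.71 for Psmb8, -3.31 for Psmb9 and -1.77 for Psmb10. That model held no immune content, with which Nfe2l1 itself was called lower, at -0.05 (edgeR adjusted p = 0.000725). What part immune content has in these coefficients was not tested. The highest library of Nfe2l1 was 1.61 times its lowest, so a full doubling lies outside the data.

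Each catalytic subunit was set against the immunoproteasome subunit that takes its place, in 3 pairs. Psmb6 and Psmb9 rose together (rho = 0.502, adjusted p = 3e-05; r = 0.429, adjusted p = 1.5e-05; two-sided permutation tests, unadjusted p = 1e-05 each, the smallest that 100000 resamples can give). Without libraries 45 and 36, farthest from the median of Psmb6, r was 0.438. The relation was present at numbers of 50 or lower (rho = 0.611), above 50 (0.593) and without libraries above 90 (0.465).

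Psmb7 and Psmb10 also rose together over all libraries (rho = 0.380, permutation p = 0.00021, adjusted p = 0.00031; r = 0.429, permutation p = 1e-05, adjusted p = 1.5e-05), with r = 0.360 without libraries 100 and 51. Without libraries above 90 the values were lower, rho = 0.272 and r = 0.236 (permutation tests, adjusted p = 0.019 and 0.046), with r = 0.170 without libraries 51 and 39. Without libraries 97, 99 and 100 rho was 0.325 (permutation test, adjusted p = 0.0024). The relation did not hold within the lower numbers: rho was -0.0282 at 50 or lower (permutation test, adjusted p = 0.85) and 0.634 above 50 (adjusted p = 3e-05). With acinar and immune contents regressed out its rho was 0.240 (permutation test, adjusted p = 0.029), against 0.520 for Psmb6 with Psmb9 and 0.114 for Psmb5 with Psmb8. Psmb5 and Psmb8 did not pass (rho = 0.0598, permutation p = 0.56, adjusted p = 0.56; r = 0.176, permutation p = 0.09, adjusted p = 0.09), with r = 0.177 without libraries 54 and 70. By r it passed with DESeq2 size factors (0.206) and with the deposited log2-like values (0.219; permutation tests, adjusted p = 0.045 and 0.033). Above number 50 that pair had a rho of 0.431 (permutation test, adjusted p = 0.0027), and at 50 or lower 0.119. The difference between the lower and the higher numbers was not tested. Much of the sequence of Psmb5 is shared with other genes, the most with Gm3375, so this pair is the least certain. Libraries of nearby number were alike and the labels do not state whether each is a separate animal. The p-values of the permutation tests and of the edgeR tests are therefore too small and measure only the spread between libraries.

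**Figure D5:**
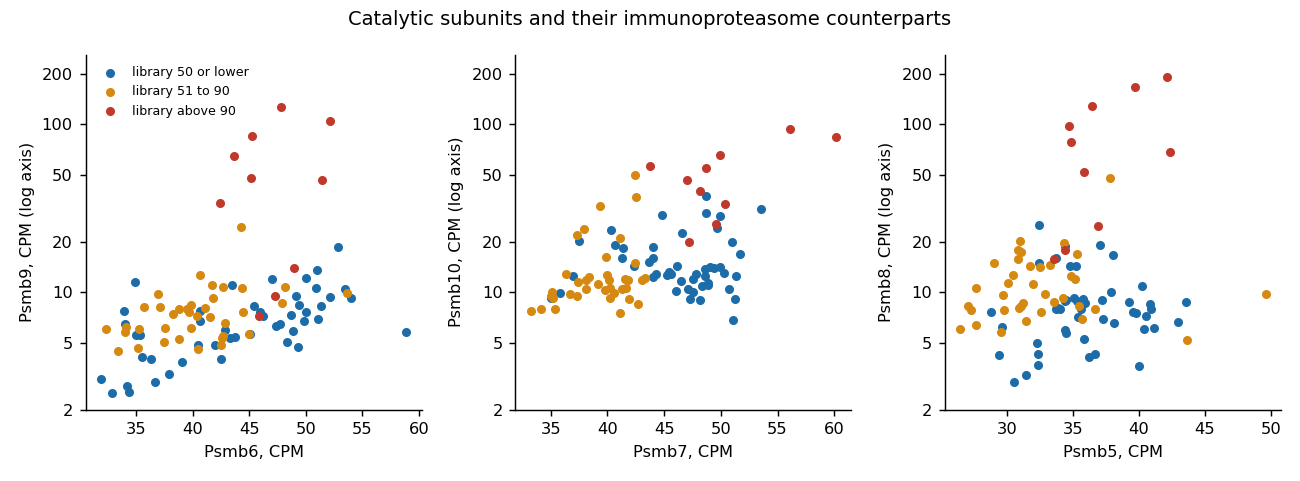
CPM of the catalytic genes Psmb6, Psmb7 and Psmb5 (linear axis) against that of Psmb9, Psmb10 and Psmb8 (log axis); each point is a library, coloured by its number. The highest points of Psmb8 and Psmb9, up to 191 and 126 CPM, are libraries above 90, while the catalytic genes stay between 26.4 and 60.2 CPM.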

How the data were processed

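The deposited count table holds estimated counts without normalization. Another deposited table gives values on a log2-like scale from variance stabilisation, and a further deposited table gives gene positions, in Mb, which is another unit than expression. Per the submitters' processing notes the genome build was GRCm38 and DESeq2 was used, with no version or role. The aligner, the counter and its use of strand are not given in the sources used here. Estimated counts were rounded to whole numbers. Levels, dispersions and quasi-likelihood F tests came from edgeR 4.0.16 (TMM, prior count of 2, Benjamini-Hochberg threshold 0.05), with content or Nfe2l1 as a continuous log2 covariate and its own list genes left out. Library totals ran from 16411809 to 34357253, and the smallest member count was 101. The alternatives were DESeq2 1.42.0 size factors, dispersions and tests, library totals alone, a prior count of 0.5, no low-count filter, Pearson's r, the deposited log2-like values and subsets of libraries. Leaving out libraries 97, 99 and 100, and summing Psma3 with Gm13835, were added after seeing the data. The members and lists were chosen with earlier results of these data known. The steps were tested on simulated data with independent libraries and, for the F tests, slopes on acinar content alone. That cannot show the error rate in libraries that resemble their neighbours. Every member is named; extremes of spread, correlation, gaps and coefficients were named by rule, as were the 10 genes most like the score and the pathway genes kept, of which some are counted but not reported singly here. Libraries singled out, and Gm13835, were chosen after their values were seen.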

Additional observations from a re-analysis of the deposited data

How the results depend on the processing

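Library totals alone, without an adjustment for the acinar transcripts that take up to 35.5% of counts, changed most results: the median coefficient of variation was 22.4%, the mean rho 0.770 (all genes 0.277), and 34 genes were called against acinar content and 34 against Nfe2l1. Psmb5 with Psmb8 then passed at 0.489, Psmb7 with Psmb10 turned to -0.175, and these coefficients changed sign: Psmd6 against acinar content (-0.0857), Psmb5 against acinar content (-0.0771), Psmd6 against immune content (0.0103), Psma3 against Nfe2l1 (0.97) and Psma4 against Nfe2l1 (0.71). At numbers of 50 or lower the median coefficient of variation was 10.6%, the mean rho 0.271 and 2 genes were called against immune content. Of these 2, 1 was higher and 1 lower, against 5.08% and 7.24% of all genes at those numbers. There Psmb7 with Psmb10 was -0.0282, and the sign changed for Psmd6 (0.0609), Psma4 against immune content (-0.0648), Psma5 against immune content (-0.0423) and Psma4 against Nfe2l1 (0.0634). Above 50, 5 genes were called against acinar content and Psmb5 with Psmb8 passed at 0.431. Without libraries above 90 the median coefficient of variation was 10.4%, 3 genes were called against immune content and Psmd6 was 0.0309 there. Without libraries 97, 99 and 100 these were 10.6% and 11 genes. Counting Psma3 with Gm13835 turned its Nfe2l1 coefficient to 0.0665. The causes of these changes, the smaller number of libraries among them, were not tested. The 8 main results were the median coefficient of variation, the mean rho, the 3 counts of calls and the rho of the 3 pairs. DESeq2 size factors and leaving out the 10 lowest totals were run on all 8 and kept them on their side. DESeq2 dispersions and tests, and leaving the low-count filter out, were run only on the coefficient of variation and the counts of calls. Another prior count (0.5) and the deposited log2-like values were run only on the correlations. Each kept the results it was run on, but the prior count left the rho of the 3 pairs unchanged, so it does not test them. For Psmb5 with Psmb8 Pearson's r did pass, at 0.206 with DESeq2 size factors and 0.219 with the deposited values.

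The labels give no groups and no shared replicate numbers. No paired analysis was possible because all libraries form 1 unassigned set. Members with few counts, such as Psmd10, are measured with less precision.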

Other observations

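Psmf1, an inhibitor of the proteasome core, fell into separate clusters of libraries. It was at 68.6 CPM or more in 16 libraries, numbered 9 to 16 and 40 to 48, and at 45.9 CPM or less in the other 79. The gap took 36.2% of its log2 range, and 0.236% of its words are found in another gene. The highest value was 81.9 CPM in library 48 and the lowest 27.0 CPM in library 90. The gene was chosen here after its values were seen, and no condition per library is known.

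The ubiquitin gene Ubb had a coefficient of variation of 36.8%, above that of each of the 34 proteasome genes. It ran from 539 CPM in library 97 to 2387 CPM in library 29. It shares 50.3% of its words with other genes, so its value is uncertain.

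The genes that ran most nearly opposite to the score of the 34 proteasome genes were Gigyf1 (rho = -0.836), Zfp512b (-0.789), Prpf40b (-0.780), Mau2 (-0.779) and Agbl5 (-0.777). Gigyf1 had a median of 75.4 CPM and ran from 45.0 to 120 CPM. These are descriptions over 95 libraries, chosen after the values were seen.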
